A study of Mus musculus with 6 samples.

Results

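Bone mineralization and osteoblast genes were examined in injured mouse Achilles tendon as a set of 9 of the 18099 genes in the deposited table. They were chosen as a functional class: genes of osteoblasts, osteocytes and mineralized matrix, selected on their known roles and on the read counts of the genotypes in these same libraries, whose difference was already known. The matrix proteins are Ibsp, Bglap, Bglap2, Dmp1 and Spp1, the enzymes Alpl and Phex, and the transcription factors Runx2 and Sp7. Bulk RNA sequencing was done on whole tendon tissue from 3 control mice and 3 Lysm-Cre; Ampkα1fl/fl mice. The mice were neonatal, and tissue was taken on day 7 after the Achilles tendon was cut. Control mice were Ampkα1fl/fl littermates, so both groups carried the floxed alleles and the same injury. Cre was expressed from the lysozyme M promoter, which is active in macrophages, monocytes and neutrophils, and Ampkα1 (gene symbol Prkaa1) is a catalytic subunit of the energy sensor AMPK. The comparison asks how the injured tissue differed when Cre was present to remove this subunit from myeloid cells.

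Osteoblasts arise when Runx2 and then its downstream partner Sp7 (osterix) are switched on in mesenchymal cells. They secrete collagen type I and acidic proteins that bind calcium, and Alpl, a phosphatase on their surface, removes pyrophosphate, which blocks mineral. Tendon shares the collagen but normally stays free of mineral, and ectopic bone or cartilage is a known outcome of tendon injury. Spp1 (osteopontin) is also made by macrophages and other cells outside bone.

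Several of these genes are close relatives or neighbours, which bears on how their reads can be told apart. Bglap and Bglap2 both encode osteocalcin, the calcium-binding hormone-like protein of osteoblasts, and lie with Bglap3 within 15.8 kb on chromosome 3 (GRCm38). Their coding sequences in GENCODE M21 run on the minus strand over chr3:88383635-88384415 and chr3:88377870-88378650, each in 4 exons. The coding sequences are shown whole, since they set how far reads could be assigned to either copy, with the bases that differ in capitals.
Bglap: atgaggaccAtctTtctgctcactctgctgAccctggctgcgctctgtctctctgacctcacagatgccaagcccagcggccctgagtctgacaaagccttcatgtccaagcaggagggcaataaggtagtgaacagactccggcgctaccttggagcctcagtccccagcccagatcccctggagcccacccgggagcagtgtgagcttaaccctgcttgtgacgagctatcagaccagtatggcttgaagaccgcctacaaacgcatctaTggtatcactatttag
Bglap2: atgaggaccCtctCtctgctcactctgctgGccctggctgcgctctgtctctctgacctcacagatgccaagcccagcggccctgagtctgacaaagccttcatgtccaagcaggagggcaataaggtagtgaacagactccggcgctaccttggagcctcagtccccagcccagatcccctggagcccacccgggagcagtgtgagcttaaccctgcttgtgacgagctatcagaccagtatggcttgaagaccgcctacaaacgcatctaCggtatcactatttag
Only 4 of the 288 bases differed (98.6% identity), and the longest shared run was 241 bases. The division of reads between the copies is therefore uncertain, and their sum is given beside each.

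Ibsp, Dmp1 and Spp1 belong to a family of acidic bone and tooth proteins whose genes sit together on chromosome 5, with Dspp at one end and Spp1 at the other of a 270 kb stretch. Ibsp (chr5:104299287-104311472) lies 85.2 kb past Dmp1 (chr5:104197575-104214102) and 124 kb before Spp1 (chr5:104435111-104441053). The 250 bases before the start of Bglap (chr3:88384467-88384716, minus strand), Ibsp (chr5:104299037-104299286, plus strand) and Spp1 (first start, chr5:104434861-104435110, plus strand) follow, from RefSeq on GRCm38.p6. These genes are shown because Bglap and Ibsp had the largest differences between the groups, and Spp1, a neighbour of Ibsp, differed the other way. Capitals mark ACCACA, the core letters bound by RUNX factors, which was searched on both strands (TGTGGT on the other).
Bglap promoter: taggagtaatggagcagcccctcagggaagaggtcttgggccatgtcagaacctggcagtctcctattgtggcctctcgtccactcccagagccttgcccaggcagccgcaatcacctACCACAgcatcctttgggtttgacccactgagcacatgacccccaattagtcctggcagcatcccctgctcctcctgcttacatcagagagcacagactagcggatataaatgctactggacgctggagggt
Ibsp promoter: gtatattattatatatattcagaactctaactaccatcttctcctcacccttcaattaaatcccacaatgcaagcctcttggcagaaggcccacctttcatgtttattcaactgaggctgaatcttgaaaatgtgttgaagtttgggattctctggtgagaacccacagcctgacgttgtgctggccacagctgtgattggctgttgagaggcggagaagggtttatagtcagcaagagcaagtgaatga
Spp1 promoter: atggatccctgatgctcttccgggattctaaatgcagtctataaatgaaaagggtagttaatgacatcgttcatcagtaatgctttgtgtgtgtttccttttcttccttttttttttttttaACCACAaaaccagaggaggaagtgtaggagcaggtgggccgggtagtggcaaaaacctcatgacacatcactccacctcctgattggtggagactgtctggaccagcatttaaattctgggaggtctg
The motif began 132 bases before the start of Bglap and 128 bases before that of Spp1. It was also found in the windows of Runx2 (80 bases before) and of the second start of Dmp1 (164 bases before). In all, 4 of the 10 windows of the 7 genes with an entry held it, against 4614 of 32851 windows of all genes (14%). Windows of Ibsp, Phex and Alpl did not hold these letters. A match is a description of the sequence and not a binding site.

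The 6 libraries held 18076805 to 19479880 reads each. The labels were checked with Lyz2, the locus into which this Cre is inserted. Lyz2 had 7372 to 7778 reads in control libraries and 8 to 15 in Lysm-Cre; Ampkα1fl/fl libraries. The groups therefore differed in lysozyme M transcript as well as in Cre and the floxed subunit, and these cannot be told apart here. The labels give no number of Cre copies. Prkaa1 reads in whole tissue overlapped (688 to 740 against 626 to 751), which does not show the level in myeloid cells. All 8 tendon markers were well detected, and their summed level overlapped between the groups (59530 to 63660 against 55550 to 64460 CPM, reads scaled to a common library size). Most of that sum was Col1a1 (44240 to 52590 CPM over the 6 libraries), so the overlap says little of the rarer markers. Of the 8, 4 were lower and 4 higher, and only Dcn, a small proteoglycan, was called. It was lower (log2 fold change -0.45, adjusted p = 0.0301, edgeR, and 0.0611 with the replicate block). Control replicate 2 stood apart by some of the 10 cartilage markers. It had 38245 reads of Col2a1 against 4103 to 6642 in the other libraries, and 71 of Matn1 against 0 to 2. Col9a1 (1480 against 167 to 623) and Hapln1 (552 against 189 to 312) were highest there too. The remaining markers, such as Acan (14440 against up to 24080) and Sox9 (412 against up to 978), were not.

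Across all genes, edgeR's quasi-likelihood test called 128 of 14261 tested (0.898%), 81 lower (0.568%) and 47 higher (0.33%) in Lysm-Cre; Ampkα1fl/fl tendon. A fit that blocked on replicate number called 47 (0.33%). None of the 9 bone genes was called by edgeR, with or without the block, while 7 had an unadjusted p under 0.05, as did 14.5% of all genes. DESeq2 called 6 of the 9 (Ibsp, Bglap, Bglap2, Phex, Alpl and Spp1), with 680 genes (4.77%) called in all, and limma on TPM called 0 of the 9, with 0.484% of all genes called. In 6 of the 9, every control library was above every Lysm-Cre; Ampkα1fl/fl library, a pattern of 11.4% of the tested genes. Spp1 had every Lysm-Cre; Ampkα1fl/fl library above (8.94% of the tested genes), and Dmp1 and Runx2 overlapped. In either direction 20.4% of the tested genes had groups that were apart. Since the genes were picked with this contrast known, these counts and the fold changes below are descriptions and not tests. All 9 passed the filter on low counts, but 4 of them (Ibsp, Bglap, Bglap2 and Sp7) did not reach 10 reads in every Lysm-Cre; Ampkα1fl/fl library and passed through their control levels. In tissue RNA, fewer cells of a type and less RNA per cell cannot be told apart.

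**Figure D1:**
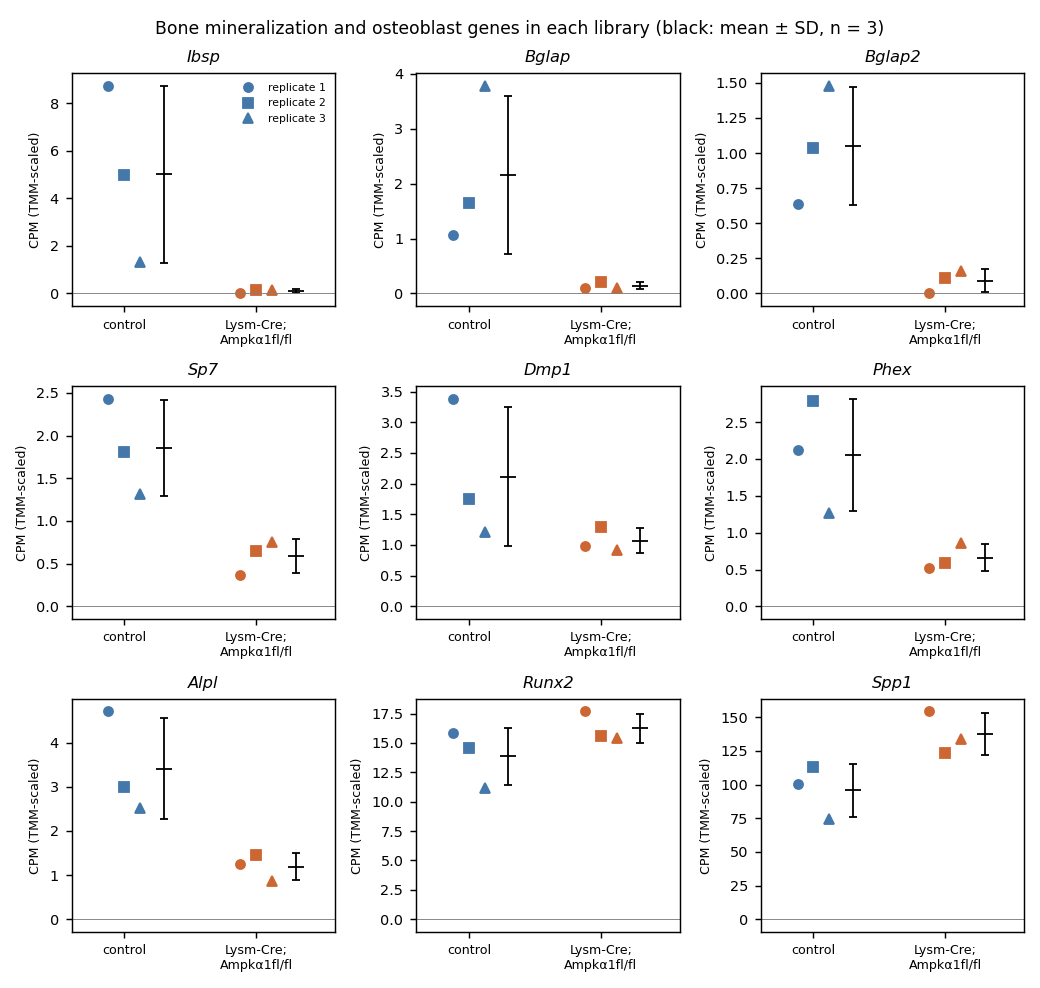
Level of each of the 9 genes in CPM (vertical axes, linear, 1 scale per gene) in each library, with circles, squares and triangles for replicates 1, 2 and 3 and the mean ± SD (n = 3) in black. Ibsp, Bglap, Bglap2, Sp7, Phex and Alpl have all 3 control libraries above all 3 Lysm-Cre; Ampkα1fl/fl libraries, Dmp1 and Runx2 overlap, and Spp1 has the Lysm-Cre; Ampkα1fl/fl libraries above.

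Ibsp (bone sialoprotein), which nucleates hydroxyapatite crystals, showed the widest gap. It had 165, 91 and 24 reads in control replicates 1, 2 and 3 (8.73, 4.97 and 1.32 CPM) and 0, 3 and 3 reads in Lysm-Cre; Ampkα1fl/fl replicates 1, 2 and 3. The control libraries differed 6.64-fold among themselves, yet the lowest of them stayed above every Lysm-Cre; Ampkα1fl/fl library. Mean levels were 5.01 ± 3.71 CPM (SD, n = 3) and 0.108 ± 0.0937 CPM (SD, n = 3), and the log2 fold change was -5.46 (SE 0.96). Pooled over each group this was 280 against 6 reads, a depth-corrected ratio of 47.3 (95% exact interval 21.5 to 129.9). The library with 0 reads allows up to 3 reads, or 0.156 CPM. Such intervals and floors cover counting error only, not the spread between mice.

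Bglap was at 20, 30 and 69 reads in control libraries (1.06, 1.64 and 3.78 CPM) and at 2, 4 and 2 reads in Lysm-Cre; Ampkα1fl/fl libraries. Bglap2 was at 12, 19 and 27 reads against 0, 2 and 3. For both copies the groups were apart, and control replicate 3, the library lowest in Ibsp, was the highest. Bglap averaged 2.16 ± 1.44 CPM (SD, n = 3) in control and 0.143 ± 0.0636 CPM (SD, n = 3) in Lysm-Cre; Ampkα1fl/fl tendon, a log2 fold change of -3.86 (SE 0.65). For Bglap2 the means were 1.05 ± 0.423 and 0.0901 ± 0.0826 CPM (SD, n = 3 each), with a log2 fold change of -3.46 (SE 0.72). Summed with Bglap3, which had at most 2 reads in any library, osteocalcin genes had 32, 49 and 98 reads in control and 2, 6 and 6 reads in Lysm-Cre; Ampkα1fl/fl libraries. The ratio of these sums was 13.0 (179 against 14 reads, 95% exact interval 7.52 to 24.2), so the difference did not rest on how reads were divided between the copies.

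Ibsp and Bglap did not share their order among the control mice. Ibsp made up 89.2% of the reads of the pair in control replicate 1 (95% exact binomial interval 83.8 to 93.3), 75.2% in replicate 2 (66.5 to 82.6) and 25.8% in replicate 3 (17.3 to 35.9). These intervals do not overlap, so the mixture of the pair differed among control mice beyond counting error. The reads of Ibsp per read of Bglap were 8.25, 3.03 and 0.348. In Lysm-Cre; Ampkα1fl/fl libraries the shares rested on 2, 7 and 5 reads, and their intervals ran from 0 to 84.2%, from 9.9 to 81.6% and from 14.7 to 94.7%. No order among those mice was detectable at this depth.

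**Figure D2:**
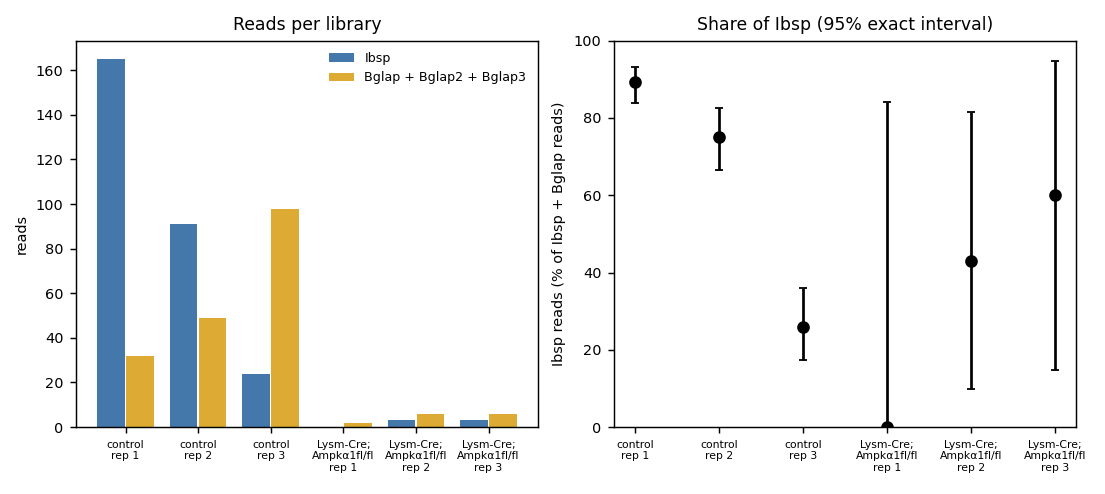
Left, reads (vertical axis, linear from 0) of Ibsp and of the summed osteocalcin genes Bglap, Bglap2 and Bglap3 in each library; right, reads of Ibsp as a percent of those of Ibsp and Bglap alone, with 95% exact binomial intervals. Ibsp exceeds the osteocalcin sum in control replicates 1 and 2 (165 against 32 and 91 against 49 reads) and not in replicate 3 (24 against 98), and no Lysm-Cre; Ampkα1fl/fl library passes 6 reads of either.

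Dmp1, a phosphoprotein of osteocytes and late osteoblasts, had 64, 32 and 22 reads in control and 19, 24 and 17 in Lysm-Cre; Ampkα1fl/fl libraries. The groups overlapped, since control replicate 3 lay below Lysm-Cre; Ampkα1fl/fl replicate 2. Means were 2.11 ± 1.14 and 1.07 ± 0.201 CPM (SD, n = 3 each), with a log2 fold change of -0.98 (SE 0.42). Without control replicate 1 it was -0.46, so that library carried much of the difference.

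Alpl was read 89, 55 and 46 times in control and 24, 27 and 16 times in Lysm-Cre; Ampkα1fl/fl libraries. The lowest control library was above the highest Lysm-Cre; Ampkα1fl/fl library. The means of 3.41 ± 1.15 and 1.19 ± 0.302 CPM (SD, n = 3 each) gave a log2 fold change of -1.51 (SE 0.32). Phex, a membrane endopeptidase whose loss causes X-linked hypophosphataemia, had 40, 51 and 23 reads in control and 10, 11 and 16 reads in Lysm-Cre; Ampkα1fl/fl libraries. Here too the groups were apart, with control replicate 2 the highest. Phex averaged 2.06 ± 0.765 and 0.660 ± 0.181 CPM (SD, n = 3 each), a log2 fold change of -1.63 (SE 0.38).

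The transcription factors of the lineage differed from each other. Sp7 had 46, 33 and 24 reads in control and 7, 12 and 14 in Lysm-Cre; Ampkα1fl/fl libraries, with no overlap. Its means were 1.85 ± 0.561 and 0.590 ± 0.202 CPM (SD, n = 3 each), and its log2 fold change was -1.64 (SE 0.37). Runx2, which acts before Sp7 and is also made outside bone, had 300, 266 and 204 reads in control and 339, 289 and 285 in Lysm-Cre; Ampkα1fl/fl libraries. Those ranges overlapped, and the means were 13.9 ± 2.42 and 16.2 ± 1.25 CPM (SD, n = 3 each) with a log2 fold change of 0.23 (SE 0.14). Of 6 annotated Runx2 transcripts, 5 had reads in at least 1 library, and their shares moved strongly between libraries. The transcript NM_009820 ran from 0 to 63.1% of the gene's reads, with 2 libraries at 0, so these counts do not settle which Runx2 isoform was made.

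Spp1 went the other way. It had 1892, 2065 and 1358 reads in control and 2958, 2290 and 2477 in Lysm-Cre; Ampkα1fl/fl libraries, so that every Lysm-Cre; Ampkα1fl/fl library was above every control library. Mean levels were 95.8 ± 19.6 and 137.3 ± 15.5 CPM (SD, n = 3 each), and the log2 fold change was 0.52 (SE 0.16). Of its 4 transcripts, NM_009263 carried 92.4 to 93.8% of the reads in every library.

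Per transcript length, Spp1 was by far the most abundant of the set, at 172.5 ± 32.5 TPM (SD, n = 3; read counts scaled to transcript length and library total) in control tendon. Bglap followed at 27.3 ± 19.3 TPM and Bglap2 at 13.6 ± 5.98 TPM. Ibsp at 6.09 ± 4.57, Runx2 at 4.94 ± 0.903 and Alpl at 3.24 ± 1.08 TPM came next. Dmp1 (1.73 ± 0.951), Sp7 (1.37 ± 0.416) and Phex (0.687 ± 0.242 TPM) were lowest. From Bglap down, each gene's mean ± SD overlapped that of the next, except between Sp7 and Phex. In Lysm-Cre; Ampkα1fl/fl tendon the order differed, with Runx2 at 5.85 ± 0.447 TPM second to Spp1 at 249.5 ± 25.5 TPM, above Bglap at 1.87 ± 0.904 and Ibsp at 0.133 ± 0.116 TPM.

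Over the 9 genes the median log2 fold change was -1.63, and over all tested genes it was 0.00. Leaving out control replicate 2, the library with the most Col2a1 and Matn1 reads, the 7 genes lower in Lysm-Cre; Ampkα1fl/fl tendon stood between -5.47 (Ibsp) and -1.10 (Dmp1). Leaving out Lysm-Cre; Ampkα1fl/fl replicate 3, which had the most muscle transcripts, they stood between -5.86 (Ibsp) and -0.89 (Dmp1).

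The wider bone programme was taken from lists of 56 other genes, of which 46 could be tested. None was called by edgeR, with or without the block, and 10 had an unadjusted p under 0.05 (21.7%, against 14.5% of all genes), 5 lower and 5 higher. Of the 46, 23 were lower and 23 higher, with a median log2 fold change of 0.00. DESeq2 called 3 of the 46 (Smpd3 and Fam20c lower and Zfp521 higher), against 4.77% of all genes.

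Among bone matrix genes (5 of 8 tested, median -0.01), the collagen genes Col1a1 (0.00) and Col1a2 (-0.01) and the collagen-binding Sparc (0.01) had log2 fold changes near 0. Tendon cells make these as well. Ifitm5, a membrane protein made almost solely by osteoblasts, had 19, 16 and 15 reads in control and 6, 9 and 4 in Lysm-Cre; Ampkα1fl/fl libraries, a log2 fold change of -1.40 (SE 0.38, adjusted p = 0.158, edgeR). Every control library was above every Lysm-Cre; Ampkα1fl/fl library for Ifitm5, as for Ibsp, Bglap, Bglap2, Sp7, Phex and Alpl. Omd, a keratan sulphate proteoglycan, was at -0.14. Dspp and Mepe, the other genes of the chromosome 5 cluster, had at most 1 read in any library.

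Of 15 tested genes of osteoblast transcription (median -0.15), 10 were lower and 5 higher. The homeobox gene Msx2 had 43, 63 and 69 reads in control and 25, 35 and 25 in Lysm-Cre; Ampkα1fl/fl libraries (log2 fold change -1.06, adjusted p = 0.143, edgeR). Msx1 (-0.61, adjusted p = 0.227, edgeR) was likewise apart between the groups. Dlx3 (-1.28, adjusted p = 0.594, edgeR) overlapped, with 49, 62 and 27 reads against 1, 9 and 47, as did the Wnt effector Lef1 (-0.40). Zfp521, a zinc finger antagonist of Runx2, is named for its DESeq2 call and stood at 0.35 (adjusted p = 0.159, edgeR). Zfp521, Dlx5 (0.25) and Fosl2 (0.20) had every Lysm-Cre; Ampkα1fl/fl library above. Of the 16 genes listed, 4 had every control library above and 3 every Lysm-Cre; Ampkα1fl/fl library, beside 11.4% and 8.94% of all tested genes. The 4 were Msx1, Msx2, Twist2 and Dlx6. Dlx6 was not among the tested genes and had at most 2 reads in any library. The summed level of the 16 was 667 to 709 CPM in control and 732 to 742 CPM in Lysm-Cre; Ampkα1fl/fl libraries. That sum rested on abundant genes such as Zfp521 (means 157.7 against 201.4 CPM) and Fosl2 (121.8 against 140.3 CPM). Atf4 (153.4 against 152.1 CPM) and Cbfb (131.8 against 129.7 CPM) were also abundant. Msx1, Msx2 and Dlx3, which were lower, averaged at most 3.27 CPM in either group.

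For phosphate and pyrophosphate handling (8 of 10 tested, median 0.02), the largest difference was in Smpd3, a sphingomyelinase needed for normal mineralization. It had 66, 105 and 51 reads in control and 17, 16 and 28 in Lysm-Cre; Ampkα1fl/fl libraries, a log2 fold change of -1.88 (SE 0.36, adjusted p = 0.0799, edgeR). Enpp1, which makes pyrophosphate and so opposes Alpl, was at 0.23 (adjusted p = 0.221, edgeR) with every Lysm-Cre; Ampkα1fl/fl library above. Ppa1 (-0.11) and Slc20a2 (0.10) overlapped.

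Fam20c, the Golgi kinase that phosphorylates Ibsp, Dmp1 and Spp1 proteins, had 472, 449 and 505 reads in control and 388, 341 and 330 in Lysm-Cre; Ampkα1fl/fl libraries. With a log2 fold change of -0.45 (SE 0.09), its adjusted p of 0.0753 (edgeR) was the smallest of the 46. The mineralization inhibitor Mgp (0.24), the protease Furin (0.20) and the procollagen protease Bmp1 (0.06) were the other genes named from the list of inhibitors and processing (5 of 6 tested, median 0.06).

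Of the 7 genes on the osteocyte list, Sost, Fgf23 and Dkk1 had at most 6 reads in any library, and the other 4 were detected at 22 reads or more in every library. Of the 4 tested (median 0.03), Tnfrsf11b (osteoprotegerin) stood at -0.36, the osteoclast factor Tnfsf11 at 0.20, Pdpn at 0.09 and Irx5 at -0.02, all with overlapping groups. The 9 hormone, growth factor and Wnt receptors had a median of 0.08, with Fgfr2 at 0.33 (adjusted p = 0.129, edgeR), Ghr at 0.24, Pth1r at 0.15 and Vdr at 0.10.

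**Figure D3:**
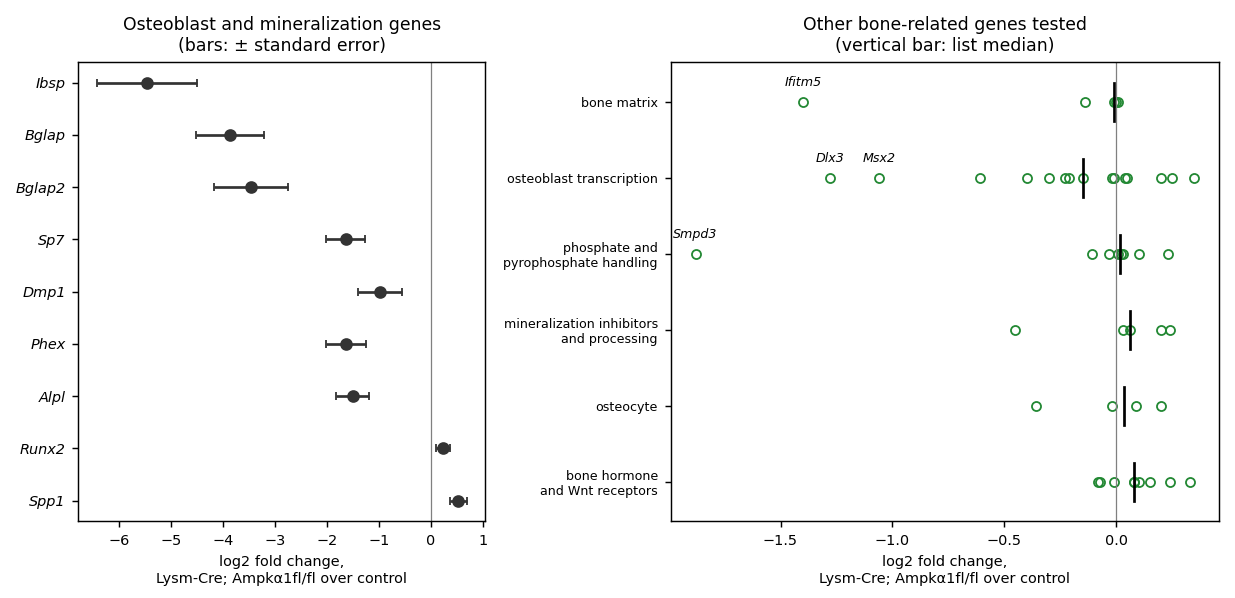
Log2 fold change of Lysm-Cre; Ampkα1fl/fl over control tendon (horizontal axes) for the 9 genes with bars of ± 1 SE, and for the 46 other tested bone genes by list with each list's median as a vertical bar. The 9 genes run from -5.46 (Ibsp) to 0.52 (Spp1), with a median of -1.63. Single genes of the lists run from -1.88 (Smpd3) to 0.35 (Zfp521), and the list medians lie between -0.15 and 0.08.

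Markers of other cell types were set beside these values. Hypertrophic chondrocytes, the cartilage cells that precede bone, also make Ibsp. Their collagen Col10a1 had 115, 65 and 4 reads in control and 1, 5 and 1 in Lysm-Cre; Ampkα1fl/fl libraries, with the order of the control libraries that Ibsp had. Panx3 had 22, 14 and 7 reads against 1, 5 and 1, and Ihh at most 4 reads. Mmp13, the only 1 of the 4 markers to pass the filter, had 92, 40 and 13 reads against 82, 26 and 35. Its groups overlapped, with a log2 fold change of -0.04. The 4 markers summed to 1.43 to 12.2 CPM in control and 2.05 to 4.43 CPM in Lysm-Cre; Ampkα1fl/fl libraries, which overlapped. The part of these cells in the difference of the bone genes was not tested.

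Other lists moved with the genotype too. Erythrocyte genes summed to 1997, 2273 and 2973 CPM in control replicates 1, 2 and 3, and to 983, 676 and 767 CPM in Lysm-Cre; Ampkα1fl/fl libraries. Bglap stood in that control order, and so did the skeletal muscle sums (163, 519 and 2774 CPM), whose groups overlapped. All 7 erythrocyte genes were lower (median log2 fold change -1.59), of which edgeR called 6, and 1 with the block. Macrophage markers summed to 1046 to 1093 CPM in control and 678 to 862 CPM in Lysm-Cre; Ampkα1fl/fl libraries. Of the 8 markers, 6 were lower, while Cd68 (log2 fold change 0.25) and Fcgr1 (0.11) were higher with overlapping groups. In 5 of the 8 every control library was above, beside 11.4% of all tested genes. None of the 8 was called by edgeR (5 at an unadjusted p under 0.05 and 3 called by DESeq2). Whether blood or macrophage content had a part in the bone gene difference was not tested.

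Osteoclast markers, by contrast, summed higher in Lysm-Cre; Ampkα1fl/fl libraries (477 to 527 against 397 to 438 CPM), mostly through Ctsk, which tendon cells also make. Of the 8 markers, Dcstamp, Ocstamp and Oscar had at most 8 reads in any library and Calcr at most 24. Acp5 (196 to 334 reads), Mmp9 (55 to 258) and Atp6v0d2 (36 to 66) were detected in every library, with overlapping groups. The sum of the 10 cartilage markers overlapped (2129 to 4171 against 2495 to 2855 CPM), its highest value being control replicate 2 with its Col2a1 reads. Of these markers only Acan was called, as higher (0.60, adjusted p = 0.0298, edgeR, and 0.0634 with the replicate block). Acan, Sox9, Comp and Matn3 had every Lysm-Cre; Ampkα1fl/fl library above, with an unadjusted p under 0.05 (edgeR), and DESeq2 called all 4. Whether cartilage content had a part in the bone gene difference was not tested. Skeletal muscle genes summed to 163 to 2774 CPM in control and 981 to 8279 CPM in Lysm-Cre; Ampkα1fl/fl libraries, which overlapped. All 10 muscle genes were higher (median log2 fold change 1.87), with 0 called by edgeR and 0 at an unadjusted p under 0.05. Whether muscle content had a part in the bone gene difference was not tested. Neutrophil markers summed to 10.8 to 35.4 and 11.7 to 34.3 CPM, also overlapping.

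**Figure D4:**
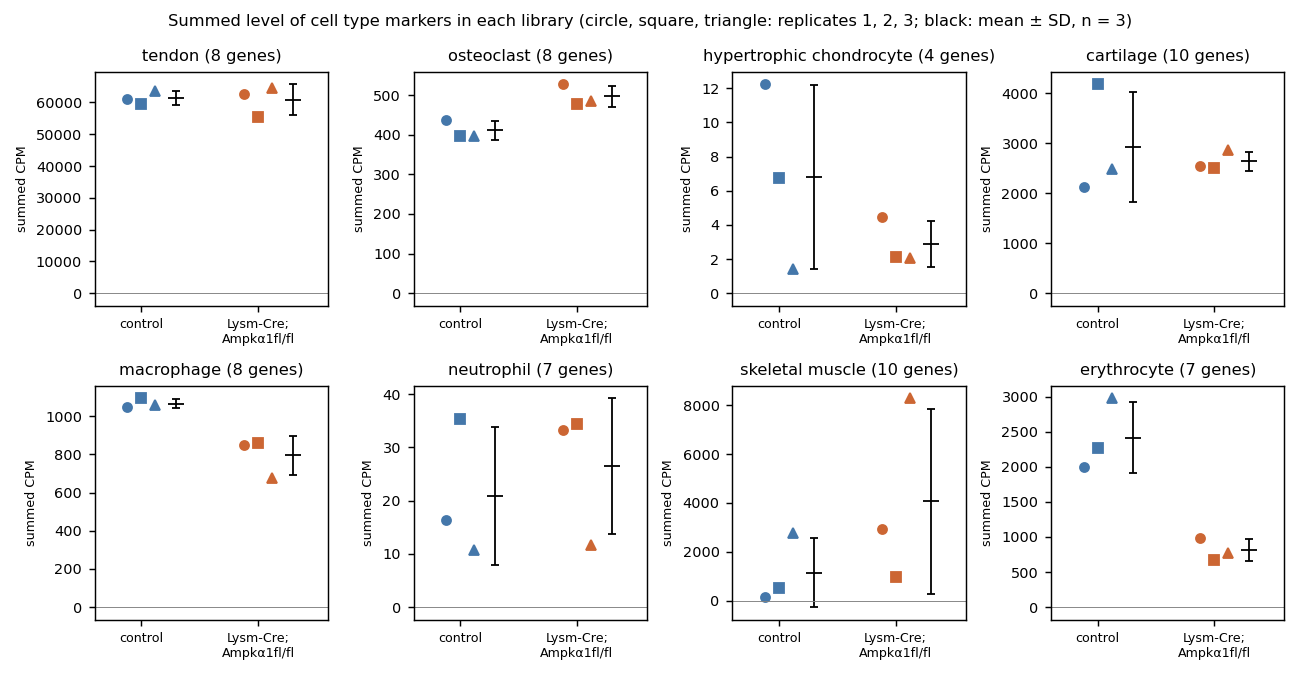
Summed CPM of the markers of 8 cell types in each library (vertical axes, linear, 1 scale per list), with circles, squares and triangles for replicates 1, 2 and 3 and the mean ± SD (n = 3) in black. Erythrocyte and macrophage sums are higher in all 3 control libraries, osteoclast sums in all 3 Lysm-Cre; Ampkα1fl/fl libraries, and the other 5 overlap.

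A bone profile was formed from Ibsp, Bglap, Bglap2, Sp7, Dmp1 and Phex as the mean of their scaled log2 CPM over the 6 libraries. Alpl followed it (Pearson r = 0.932), whereas Runx2 (-0.477) and Spp1 (-0.73) ran against it. The genes outside the set most like it were Kif20a, a mitotic kinesin (0.995), Cdon, a Hedgehog co-receptor (0.993), Gdnf (0.99), Nqo1 (0.99) and Golim4 (0.988). Among them edgeR called only Cdon. The log2 fold changes of the others were -0.56 (Kif20a), -0.41 (Gdnf), -0.68 (Nqo1) and -0.11 (Golim4). Their adjusted p values (edgeR) were 0.0512, 0.38, 0.186 and 0.32. Cdon had 4151, 4010 and 3740 reads in control and 2775, 2980 and 2825 in Lysm-Cre; Ampkα1fl/fl libraries, and fell by 0.49 on the log2 scale (adjusted p = 0.0276, edgeR, and 0.0611 with the replicate block). The coefficients are descriptions over 6 libraries that share the genotype difference, and say nothing of shared function.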

How the data were processed

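RNA was sequenced from injured tendon of 3 control and 3 Lysm-Cre; Ampkα1fl/fl mice. For 65053 RefSeq transcripts an estimated count per library was deposited by the authors, without normalization. The deposited TPM values had been scaled by transcript length and library total. The processing notes name GRCm38.p6, while the aligner and counting tool are not given in the sources used here. Not used were 6 FPKM columns, 6 of normalized counts and 8 of group averages. Estimated counts were summed per gene, rounded to whole reads and matched to symbols through RefSeq (18049 of 18099 genes).

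The genotypes were compared by the quasi-likelihood F test of edgeR 4.0.16 (R 4.3.3) after filterByExpr and TMM scaling, with a Benjamini-Hochberg threshold of 0.05. The scripts were tested on simulated data. Alternatives were DESeq2 1.42.0, limma 3.58.1 on log2(TPM + 0.5), other scalings and filters, each library left out, and a replicate block. CPM used TMM library sizes. Deviations from the group mean correlated only weakly between same-numbered libraries (0.13, 0.133 and 0.32). Control replicate 1 with Lysm-Cre; Ampkα1fl/fl replicate 2 reached 0.537, and control replicate 3 with Lysm-Cre; Ampkα1fl/fl replicate 1 reached 0.145. The labels state no pairing and these values do not establish one. The main test was therefore unpaired, and the replicate block is given only as an alternative.

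The 9 genes and all lists were chosen with earlier results of these data known. Named were the 9 genes, from each bone list those called and up to 4 with the largest fold change, scarce cell type markers, and the 5 genes most like the bone profile. Other genes were chosen after their values were seen.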

Additional observations from a re-analysis of the deposited data

How the results depend on the processing

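Of 121 alternative values for single bone genes over 14 other fits, all 121 kept their direction, and 8 moved by more than 1 SD between replicates. All 14 fits drew on the same 6 libraries, and the genes were chosen with the contrast known. The shared direction is therefore not independent support. The number of genes called out of all tested was 128, and became 680 with DESeq2, 47 with the replicate block and 69 with limma on TPM. It ranged from 8 to 276 when 1 library was left out: 10, 8 and 24 without control replicates 1, 2 and 3, and 12, 276 and 60 without Lysm-Cre; Ampkα1fl/fl replicates 1, 2 and 3. The number of the 9 bone genes called was 0, and became 6 with DESeq2 and 1 (Bglap) without a filter on low counts. With 1 library left out it was 0 to 1, the call being Ibsp without control replicate 3. The median log2 fold change of the 9 was -1.63, and became -0.98 with at least 10 counts in every library, which leaves 5 of them, and -0.97 with limma on TPM, whose pseudocount draws low genes toward 0. It was -1.86 to -1.39 with 1 library left out. DESeq2 called 3 of the 46 other bone genes. The replicate block changed no call among the bone genes. Summing the Bglap copies was chosen after seeing the data and left 0 called. Low read counts limit Ibsp, Bglap and Bglap2 most, and with 3 mice a group the spread between mice is known only roughly. The cause of the differences between tools was not tested.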

Other observations

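Control replicate 2 was the highest library for 2 of the 7 neutrophil markers, which were singled out after their values were seen. Mpo, a granule enzyme made by neutrophil precursors, had 108 reads there and 0 to 28 in the other libraries, and Elane had 30 against 0 to 7. The other 5 markers did not follow: S100a8 had 138 reads in that library and up to 161 elsewhere, S100a9 179 and up to 230, Csf3r 184 and up to 218, Retnlg 9 and up to 45, and Ly6g 0 and up to 8. For Ibsp, Bglap, Bglap2, Sp7, Dmp1, Alpl and Runx2 that library lay between the other control libraries. For Phex (51 reads) and Spp1 (2065 reads) it was the highest control library.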
